A study of Mus musculus with 7 samples.

Results

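The liver sinusoidal endothelial scavenger genes described here are Stab1, Stab2, Lyve1, Mrc1, Cd36, Clec4g, Oit3 and Dnase1l3, chosen by symbol: 8 of the 12393 genes named by probe sets of 1 gene on the arrays. They were read by 13 probe sets, 1 each for Stab1, Stab2, Mrc1 and Oit3 and several for the other 4 genes. RNA of mouse fetal liver cells had been hybridised to 7 short-oligonucleotide arrays: a feeder cell layer from fetal liver (n = 1), liver endothelial progenitors with no Sca1 sort named, here called unsorted (n = 1), and progenitors sorted by the stem cell antigen Sca1, with 2 samples of positive cells (Sca1+) and 3 of negative cells (Sca1-). Strain, gestational age and culture time are not given in the sources used here, and neither is whether replicates came from separate animals or cultures, so that p-values measure only the spread between these samples. Every value below is a probe set's signal after each array was brought to a trimmed mean of 500. A signal above 100 counted as read, and differences are log2 values for which signals under 64 were set to 64.

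Sinusoidal endothelial cells line the fenestrated capillaries of the liver and clear waste macromolecules from blood by endocytosis. Stabilin-1 and stabilin-2 (Stab1 and Stab2) are large scavenger receptors, stabilin-2 being a main hyaluronan clearance receptor, and Lyve1 is a hyaluronan receptor also known from lymphatic vessels. The mannose receptor (Mrc1) takes up mannosylated glycoproteins and collagen fragments, and Cd36 binds fatty acids and modified lipoproteins. Clec4g is a C-type lectin, Oit3 a zona pellucida domain protein and Dnase1l3 a secreted DNase. Several of them are not restricted to endothelium: macrophages also express Stab1, Mrc1, Cd36 and Dnase1l3, some tissue macrophages express Lyve1, and Cd36 is found on platelets and adipocytes as well.

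The scavenger genes differed in how widely they were read. By the probe set used, Stab1, Mrc1 and Cd36 gave a signal above 100 and above every bacterial control probe set on all 7 arrays. Stab2 was low, although above the controls on all 7 arrays. Oit3 exceeded the controls on 4 of 7 arrays without reaching 100 on a sorted array. Lyve1, Clec4g and Dnase1l3 stayed at or under the controls on at least 6 of 7 arrays. Stab1, Mrc1 and Cd36 are shared with macrophages, but so are Dnase1l3 and, for some tissue macrophages, Lyve1. Of all 12393 genes, 49% exceeded 100 on all 7 arrays, against 3 of the 8 scavenger genes, and 14.8% exceeded it on none, against 1 of the 8. The highest bacterial control was 60.8 on the feeder array, 170.4 on the unsorted array, 55.2 and 82.0 in Sca1+ cells and 169.9, 88.2 and 50.8 in Sca1- cells, and whether control transcripts had been added to the RNA is not stated in the labels. In RNA of mixed cells, fewer cells of a type and less RNA per cell cannot be told apart.

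**Figure D1:**
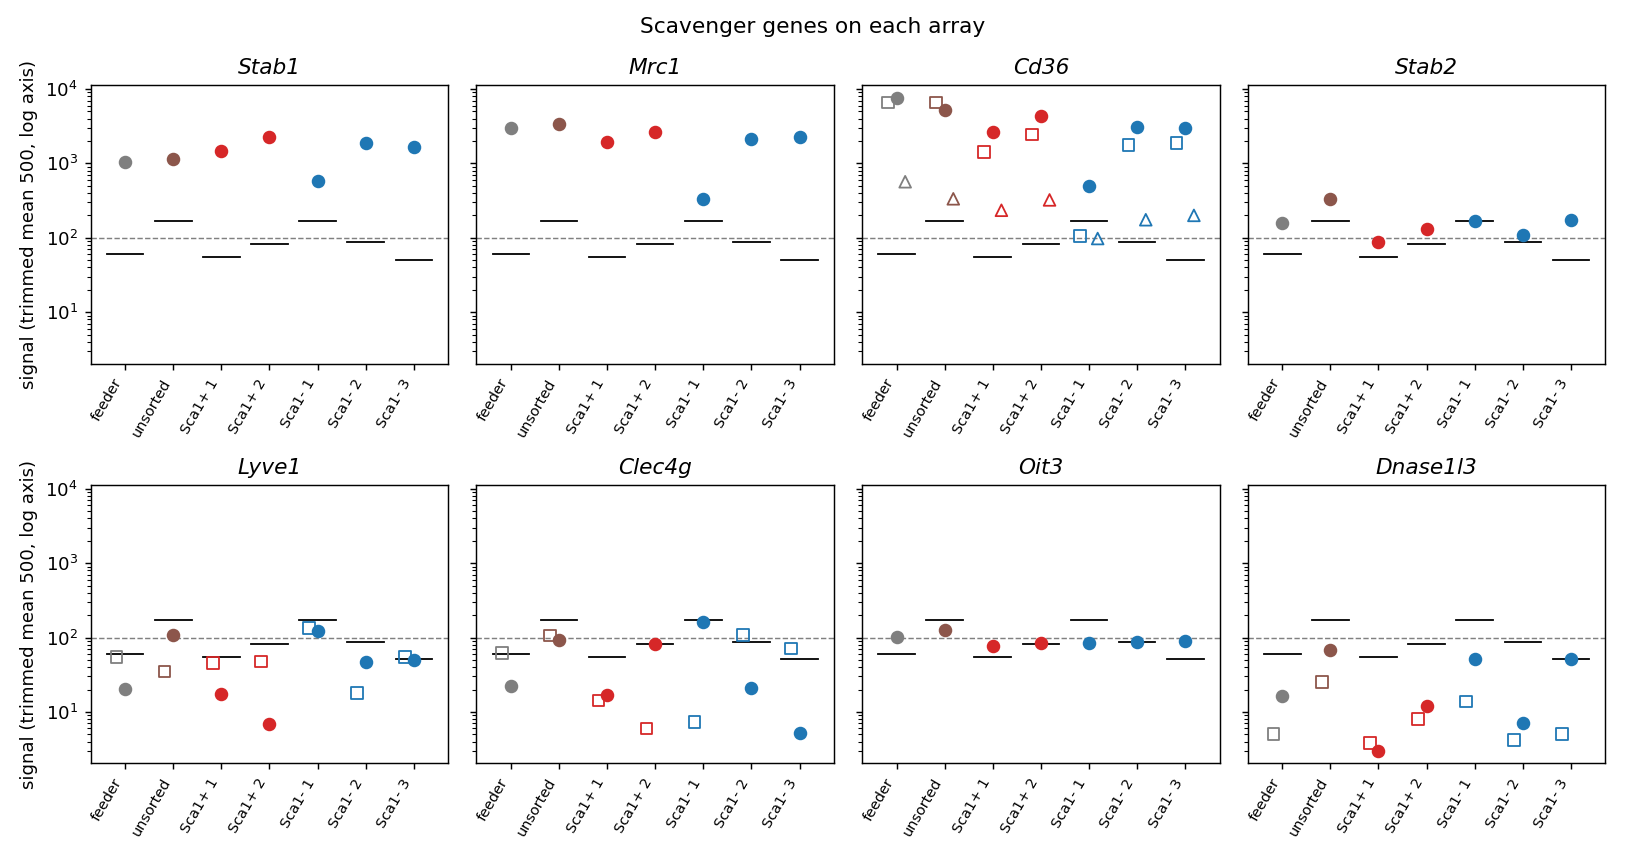
Signal of every probe set of the 8 scavenger genes (log axis, trimmed mean 500) on the feeder, unsorted, Sca1+ and Sca1- arrays. Filled points are the probe sets used and open points the other probe sets. Black bars mark the highest bacterial control of each array and the dashed line the minimum of 100. By the probe sets used, Stab1, Mrc1 and Cd36 stand above both lines everywhere, with a dip on Sca1- replicate 1. Cd36's other probe sets were at 106 and 97.7 there, below that array's control of 169.9.

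Promoter sequences were available for Stab1, Mrc1, Cd36, Stab2 and Clec4g, 5 of the 8 genes, from RefSeq on GRCm38.p6, each covering 250 bases before to 50 after an annotated start. They are shown for the 4 genes that passed the signal filter, since Stab1 and Stab2 encode related receptors with different readings and Mrc1 and Cd36 had nearly the same profile over the arrays. Lyve1, Clec4g, Oit3 and Dnase1l3 lie on chromosomes 7, 8, 10 and 14. The Stab1 window lies at chr14:31168592-31168891 (minus strand), Mrc1 at chr2:14229164-14229463 (plus strand), Cd36 at chr5:17835847-17836146 (minus strand) and Stab2 at chr10:87007893-87008192 (minus strand). Cd36 is annotated at chr5:17781690-17888959, so its window lies inside the gene and not at the gene's outer end, which was not searched. Capitals mark GAGGAA on either strand (TTCCTC where it lies on the other), a core bound by ETS factors such as the myeloid factor PU.1.
Stab1: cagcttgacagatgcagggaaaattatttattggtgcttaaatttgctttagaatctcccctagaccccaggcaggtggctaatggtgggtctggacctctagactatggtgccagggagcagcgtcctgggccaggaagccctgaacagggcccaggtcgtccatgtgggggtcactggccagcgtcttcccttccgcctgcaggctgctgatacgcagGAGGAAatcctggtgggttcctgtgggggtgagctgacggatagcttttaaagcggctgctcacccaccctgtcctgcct
Mrc1: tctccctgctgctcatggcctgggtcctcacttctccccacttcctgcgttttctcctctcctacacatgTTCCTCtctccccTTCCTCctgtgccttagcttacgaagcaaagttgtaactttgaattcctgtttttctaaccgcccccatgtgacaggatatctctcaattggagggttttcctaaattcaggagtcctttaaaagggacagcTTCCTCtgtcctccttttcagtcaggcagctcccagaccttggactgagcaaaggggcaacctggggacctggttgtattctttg
Cd36: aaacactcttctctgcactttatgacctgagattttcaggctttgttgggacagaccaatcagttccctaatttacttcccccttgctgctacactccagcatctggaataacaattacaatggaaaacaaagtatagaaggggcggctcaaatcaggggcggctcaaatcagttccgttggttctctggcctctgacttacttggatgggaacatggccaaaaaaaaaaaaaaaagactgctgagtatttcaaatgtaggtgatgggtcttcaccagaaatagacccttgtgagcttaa
Stab2: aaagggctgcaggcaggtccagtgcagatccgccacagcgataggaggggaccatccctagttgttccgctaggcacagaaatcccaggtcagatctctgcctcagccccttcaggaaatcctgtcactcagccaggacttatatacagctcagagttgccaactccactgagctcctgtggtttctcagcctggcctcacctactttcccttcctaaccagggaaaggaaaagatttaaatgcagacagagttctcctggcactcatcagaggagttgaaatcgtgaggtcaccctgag
GAGGAA was present once in the Stab1 window and 3 times in that of Mrc1, and in 28.3% of all 32851 promoter windows of this length. It was not found in the windows of Cd36, Stab2 and Clec4g. The GATA-type motifs AGATAA (11.2% of all windows) and TGATAA (9.05%) were in none of the 5, on either strand. Other forms of the GATA motif were not searched. A match of letters is a description and not a bound site.

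Stab1 was read on every array. Its signal was 1051 on the feeder array, 1156 on the unsorted array, 1447 and 2255 in Sca1+ cells and 579, 1883 and 1684 in Sca1- cells. Both Sca1+ arrays and Sca1- replicates 2 and 3 lay above the feeder and unsorted arrays, Sca1- replicate 1 lay below all others, and the fractions overlapped. The mean log2 signal was 10.82 ± 0.45 in Sca1+ (SD, n = 2) and 10.26 ± 0.94 in Sca1- (SD, n = 3).

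Mrc1 had signals of 3022 on the feeder array, 3355 on the unsorted array, 1937 and 2613 in Sca1+ cells and 334, 2119 and 2268 in Sca1- cells. The 4 sorted arrays other than Sca1- replicate 1 differed among themselves by at most 1.35-fold, and the lowest of them was 5.81 times Sca1- replicate 1. The mean log2 signal was 11.14 ± 0.31 in Sca1+ and 10.19 ± 1.57 in Sca1-.

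Cd36, by its probe set of highest mean log2 signal, had 7671 on the feeder array, 5212 on the unsorted array, 2625 and 4396 in Sca1+ cells and 495, 3085 and 2979.7 in Sca1- cells. By the probe sets used, it was the one scavenger gene whose highest signal over the 7 arrays was on the feeder array. Its next probe set read 6574 on the feeder array, 6601 on the unsorted array, 1417 and 2459 in Sca1+ cells and 106, 1758 and 1867 in Sca1- cells. The dimmest of the 3 read 567 on the feeder array, 334 on the unsorted array, 234 and 323 in Sca1+ cells and 97.7, 175 and 200.1 in Sca1- cells. All 3 probe sets were lowest on Sca1- replicate 1, but by different amounts: the next probe set read 0.215 of the one used there, against 0.540 to 0.627 on the other sorted arrays, and the dimmest read 0.198 of it, against 0.0567 to 0.0893.

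Stab2 was above the highest bacterial control on all 7 arrays but close to it on several. Its signal was 157 on the feeder array, 331 on the unsorted array, 87.8 and 133 in Sca1+ cells and 170.3, 108 and 175 in Sca1- cells. It was highest on the unsorted array and lowest on Sca1+ replicate 1, and the sorted arrays differed by at most 1.99-fold. Unlike for Stab1, Mrc1 and Cd36, Sca1- replicate 1 was not its lowest array, although its signal there was level with the control of 169.9.

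Lyve1 did not exceed the highest bacterial control on any array by the probe set used. That probe set read 20.4 on the feeder array, 109 on the unsorted array, 17.4 and 6.80 in Sca1+ cells and 123, 46.6 and 49.2 in Sca1- cells. Its second probe set read 54.4 on the feeder array, 34.8 on the unsorted array, 45.8 and 47.6 in Sca1+ cells and 136, 17.99 and 55.2 in Sca1- cells. Both were highest on Sca1- replicate 1, where they stayed below the control of 169.9.

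The 2 probe sets of Clec4g went apart. The one used read 22.6 on the feeder array, 92.0 on the unsorted array, 16.8 and 82.8 in Sca1+ cells and 162, 21.0 and 5.20 in Sca1- cells. The other read 62.4 on the feeder array, 106 on the unsorted array, 14.2 and 5.998 in Sca1+ cells and 7.40, 109 and 71.0 in Sca1- cells. Sca1- replicate 1 was the highest array for the first and among the lowest for the second, and a signal above both 100 and the control was met once, on Sca1- replicate 2 with the second.

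Oit3 was the least variable of the 8 genes, with signals of 103 on the feeder array, 126 on the unsorted array, 77.6 and 85.0 in Sca1+ cells and 84.55, 87.6 and 88.6 in Sca1- cells. Its range of 1.62-fold over 7 arrays lay near the signal minimum, and it exceeded both 100 and the control on the feeder array alone. Dnase1l3 stayed under 100 on every array with both probe sets. The one used read 16.4 on the feeder array, 67.6 on the unsorted array, 3.00 and 12.2 in Sca1+ cells and 52.0, 7.20 and 51.0 in Sca1- cells, and the other reached at most 25.0.

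The comparison of Sca1+ with Sca1- cells bears on whether scavenger transcripts differ between the fractions. Stab1, Mrc1 and Cd36 had higher means and Stab2 a lower mean in Sca1+, but none of the 4 passed the test, and by the probe set used the fractions overlapped in each. By the dimmest Cd36 probe set both Sca1+ arrays, at 234 and 323, lay above the Sca1- arrays at 97.7, 175 and 200.1. The other 4 genes did not reach the filter of a signal above 100 on 2 of the 5 sorted arrays and were not tested. The log2 difference, Sca1+ minus Sca1-, was 0.56 ± 0.60 (SE) for Stab1, with a 95% interval from -0.85 to 1.97, and 0.94 ± 0.85 for Mrc1, from -1.07 to 2.95. It was 1.04 ± 0.84 for Cd36, from -0.94 to 3.01, and -0.45 ± 0.47 for Stab2, from -1.55 to 0.65. With limma and Benjamini-Hochberg adjustment over 8591 genes the adjusted p was 0.9995 for each, and unadjusted p lay between 0.255 and 0.379. Of all genes tested 0% passed at an adjusted p under 0.05 and 3.4% had an unadjusted p under 0.05. With signals under 64 set to 64, complete separation of the fractions was seen for 0 of the 4 tested scavenger genes, while Sca1+ was wholly above Sca1- for 12.1% of the genes tested and wholly below for 8.45%. Among the untested genes the unfloored Lyve1 signals of the probe set used were separate, both lower in Sca1+ than in any Sca1- sample. Of these 5 signals, however, 4 lay under that floor. The second Lyve1 probe set overlapped, at 45.8 and 47.6 in Sca1+ cells and 136, 17.99 and 55.2 in Sca1- cells.

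The arrays form 2 sets by their processing notes, and both sets hold both fractions: the second set is Sca1+ replicate 2 with Sca1- replicates 2 and 3, whose notes name the software GCOS, and the first set the other 4 arrays. With the array set as a block the difference was 0.76 ± 0.29 for Stab1 (adjusted p = 0.309), 1.23 ± 0.50 for Mrc1 (adjusted p = 0.320), 1.34 ± 0.42 for Cd36 (adjusted p = 0.256) and -0.43 ± 0.42 for Stab2 (adjusted p = 0.626) in limma. None passed, where 0.989% of all genes did, all of them lower in Sca1+. An unadjusted p under 0.05 in limma was met by 3 of the 4, Stab1, Mrc1 and Cd36. Of all genes 15.5% met it, and 7.67% did with a higher level in Sca1+. Within the first set, 1 array against 1, the difference was 1.32 for Stab1, 2.54 for Mrc1, 2.41 for Cd36 and -0.96 for Stab2. Within the second, 1 against 2, it was 0.34, 0.25, 0.54 and -0.04 in the same order. The signs agree between the sets for these 4 genes; the sizes do not, and the difference between the sets was not tested.

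The size of the difference rested on Sca1- replicate 1 for Stab1, Mrc1 and Cd36, 3 of the 4 genes. Without that array the difference was 0.02 ± 0.32 for Stab1, 0.04 ± 0.28 for Mrc1, 0.16 ± 0.33 for Cd36 and -0.34 ± 0.46 for Stab2, each with an adjusted p of at least 0.879 in limma, and the 95% interval for Mrc1 was -0.68 to 0.75. Other single arrays also moved the values: Stab1 had 0.24 without Sca1+ replicate 2 and Stab2 had -0.15 without Sca1+ replicate 1. Stab1, Mrc1 and Cd36 were at least 2-fold lower on Sca1- replicate 1 than on every other sorted array, as were 9.03% of the 8591 genes. The same array had the highest ratio of 3' to 5' probe sets, a sign of truncated transcripts: 13.5 for Actb and 13.2 for Gapdh. Sca1+ replicate 1, the other sorted array of the first set, came next at 6.83 and 4.86. Sorted arrays of the second set had 1.87 to 2.37 and 2.04 to 2.16, and the feeder array 1.03 and 0.873. Both sorted arrays of the first set thus had raised ratios. On Sca1- replicate 1 the signal for the cre hybridisation control was 111744, against 45164 to 52925 on the other sorted arrays. The part of these technical values in the result was not tested.

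**Figure D2:**
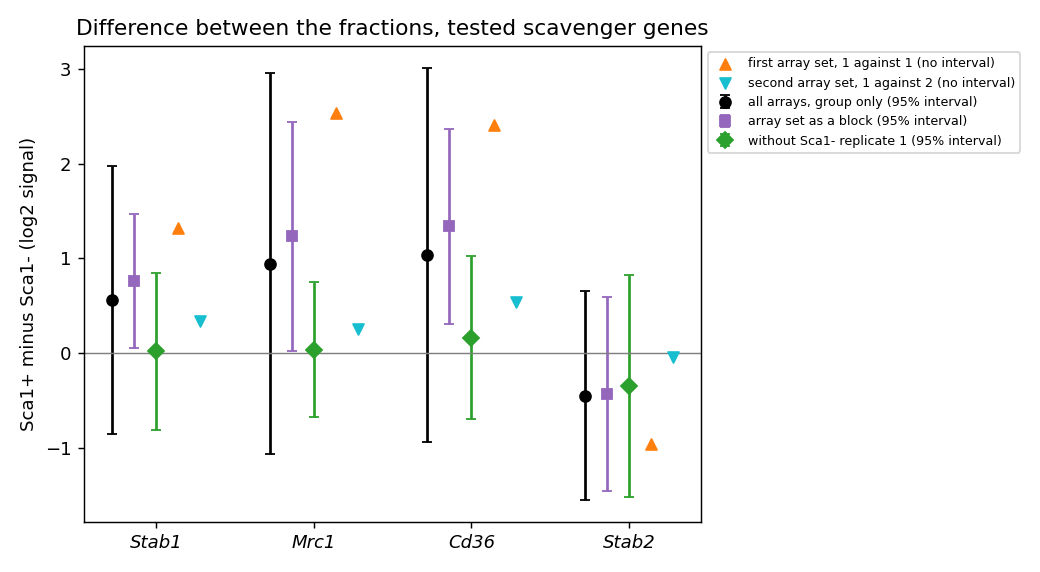
Sca1+ minus Sca1- difference in log2 signal of the 4 tested scavenger genes, from all arrays, with the array set as a block and without Sca1- replicate 1 (points with 95% intervals from limma), and within each array set (triangles, no interval). Without Sca1- replicate 1 the differences of Stab1, Mrc1 and Cd36 were 0.02, 0.04 and 0.16.

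Macrophage transcripts were abundant beside the scavenger genes they share. Between 61.1% and 76.0% of all genes exceeded 100 on each array. On a list of macrophage and Kupffer genes with 28 measured, 82.1% to 89.3% did: 24 on the feeder array, 25 on the unsorted array, 23 and 25 in Sca1+ cells and 23, 24 and 25 in Sca1- cells. Their summed signal was 115252 on the feeder array, 114971 on the unsorted array, 229899 and 172893 in Sca1+ cells and 240478, 160127 and 145305 in Sca1- cells. No member was at 0, and the Kupffer and scavenger receptor genes Cd163 and Marco stayed under 100 on all 7 arrays. Of the 25 tested, 0 passed in limma and 19 (76.0%) had a difference above 0, beside 55.9% of all genes tested. Their median was 0.42 beside 0.07 over all genes. The first set gave a median of 1.23, the second one of 0.39, and the fit without Sca1- replicate 1 one of -0.01. Adgre1, which encodes the macrophage antigen F4/80 (1.75 ± 0.58), the Fc receptor gene Fcgr1 (1.30 ± 0.44) and the scavenger receptor gene Msr1 (1.06 ± 0.52) had the smallest p, and without that array they had 1.43, 1.14 and 0.62. On Sca1- replicate 1, 9 of these 25 genes were at least 2-fold below every other sorted array, against 9.03% of all genes. The summed macrophage signal was nevertheless highest there, with Lyz2, the lysozyme gene, at 79825. Summed signal of all 12393 genes was also highest on that array, at 13392090, against 8711939 to 11276688 on the others. A higher sum there is thus not particular to macrophage genes. The part of macrophage RNA in the scavenger gene values was not tested.

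Endothelial markers were read less widely. Of 26 pan-endothelial genes measured, 10 exceeded 100 on the feeder array, 18 on the unsorted array, 7 and 17 in Sca1+ cells and 11, 9 and 9 in Sca1- cells. In that order these were 38.5%, 69.2%, 26.9%, 65.4%, 42.3%, 34.6% and 34.6% of the list. Of all genes 65.6%, 76.0%, 61.1%, 66.1%, 66.3%, 63.6% and 62.9% exceeded 100. On Sca1+ replicate 2 the list was thus near the share of all genes. Tek, Tie1, Erg, Clec14a and Ptprb stayed under 100 on all 7 arrays, so that these 5 markers of the labelled cell type were not read on any array. None was listed at 0, and 14.8% of all genes exceeded 100 on no array. Another 5 of the 26, Kdr, Eng, Egfl7, Icam2 and Fli1, exceeded 100 on all 7 arrays, as did 49% of all genes. Summed pan-endothelial signal was 3478 on the feeder array, 4951 on the unsorted array, 1980.03 and 5208 in Sca1+ cells and 3131, 2980.3 and 3053 in Sca1- cells. Pecam1, the CD31 gene, ranged from 15.0 to 206 and Ptprc, the gene of the leukocyte antigen CD45, from 3302 to 13668 over the 7 arrays; no probe set was paired with Ly6a, the Sca1 gene. Of 15 other genes of sinusoidal endothelium measured, 8 exceeded 100 on the feeder array, 10 on the unsorted array, 4 and 7 in Sca1+ cells and 6, 5 and 5 in Sca1- cells. These were 26.7% to 66.7% of the list, beside 61.1% to 76.0% of all genes. Fcgr2b and Ctsl, which macrophages also express, were the members above 100 on all 7 arrays, and F8, Wnt2, Ntn4 and Adam23 exceeded it on none.

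**Figure D3:**
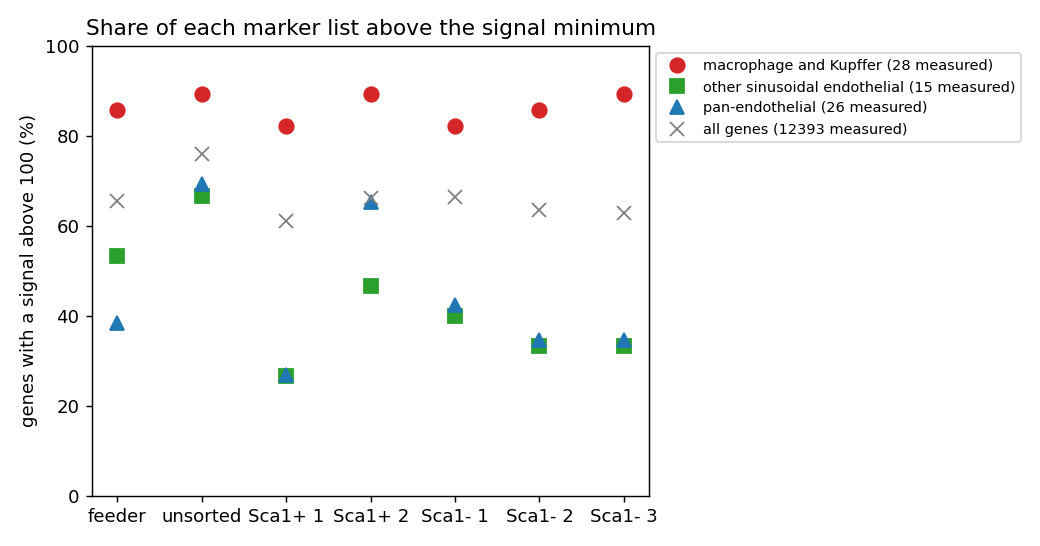
Percentage of measured genes with a signal above 100 on each array, for macrophage and Kupffer genes, other sinusoidal endothelial genes, pan-endothelial genes and all genes. Macrophage genes lie above the share of all genes on every array and both endothelial lists below it.

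In the Sca1+ against Sca1- test 0 of the 7 tested sinusoidal genes passed, with a median of 0.60; Ehd3 (0.84 ± 0.52), Ctsl (0.64 ± 0.50) and Bmp2 (0.79 ± 0.94) had the smallest p. Without Sca1- replicate 1 that median was 0.19, and Ehd3, Ctsl and Bmp2 had 0.71, 0.24 and 0.18. Of 14 pan-endothelial genes tested 0 passed, with a median of 0.39 (first set alone -0.46, second set alone 0.94); Ramp2 (1.10 ± 0.72), Fli1 (-1.10 ± 0.78) and Cd34 (0.58 ± 0.48) had the smallest p. Of 3 lymphatic endothelial genes tested, 0 passed and the median was 0.05; Prox1, the lymphatic transcription factor gene, was measured but did not reach 100 on any array.

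Genes that act with the scavenger receptors were also compared between the fractions. Of 14 other scavenger receptor genes tested 0 passed and the median was 0.39. Of these, 8 (57.1%) were above 0, near the 55.9% of all genes tested. Cxcl16, which encodes a chemokine and receptor for oxidised lipoprotein (1.30 ± 0.42), Msr1 (1.06 ± 0.52) and Ager (-0.97 ± 0.49) had the smallest p. Of 8 C-type lectin genes tested 0 passed with group as the only term and the median was 0.21. One of them, the beta-glucan receptor gene Clec7a (-1.26 ± 0.75), was lower in Sca1+ with the array set as a block (-1.55, adjusted p = 0.0423 in limma), where 0.989% of all genes passed. Its signals were 3510 and 1235 in Sca1+ cells and 12434, 3233 and 3071 in Sca1- cells, which overlap, and its difference was -0.60 without Sca1- replicate 1. Of 8 hyaluronan genes tested 0 passed and 1 was above 0, with a median of -0.17; the hyaluronan receptor genes Hmmr (-0.94 ± 0.38) and Cd44 (-0.75 ± 0.39) had the smallest p. Of 8 fatty acid handling genes 0 passed, with a median of -0.10; the transporter gene Slc27a4 (-2.06 ± 0.74) lay opposite to Cd36 and the regulator gene Pparg (1.03 ± 0.79) in the same direction. These were -1.31 and 0.30 without Sca1- replicate 1. Of 4 DNA clearance genes 0 passed, with a median of 0.35, and Dnase1l1 and Dnase2a had differences of 0.40 ± 0.40 and 0.39 ± 0.48. Of 13 endocytic and lysosomal genes 0 passed, with a median of 0.24, and the clathrin adaptor gene Dab2 (1.26 ± 0.47), the lysosomal protease gene Lgmn (1.67 ± 1.04) and the adaptor subunit gene Ap2a1 (-1.13 ± 0.88) had the smallest p. Their differences without Sca1- replicate 1 were 0.93, 0.52 and -1.46. The median over all 8591 genes was 0.07.

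Lists of other cell types also had 0 members past the threshold. The medians were 0.22 for 3 dendritic cell genes, -0.0038 for 6 megakaryocyte and platelet genes, -0.59 for 2 erythroid genes, 0.14 for 4 hepatoblast and hepatocyte genes and 0.35 for 10 fibroblast genes, the last being -0.04 in the first array set and 1.79 in the second. Without Sca1- replicate 1 the medians of the fibroblast, hepatoblast and other scavenger receptor lists were below 0, at -0.53, -0.43 and -0.13.

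On the unsorted array Stab2, Mrc1 and Cd36 were at least 2-fold above the mean of the sorted fractions, with log2 differences of 1.39, 1.05 and 1.14; 21.6% of the 10510 genes above 100 on any of the 6 arrays were as well. Stab1 had a difference of -0.36. The 2-fold excess was lost for all 3 with each array scaled to its median, where the differences were 0.67, 0.32 and 0.41, and for Stab2 after quantile normalization, where it was 0.79. There was 1 unsorted array, so that no test was made. The unsorted array also differed in its controls, with a 3' to 5' ratio of 1.01 for Actb and 0.865 for Gapdh and a cre signal of 13550.0, all below every sorted array. Tested fibroblast genes had a median difference of 2.50 in the same comparison, hepatoblast genes 1.56, other sinusoidal genes 0.85 and macrophage genes 0.14. The part of these in the scavenger gene values was not tested. Without Sca1- replicate 1 the differences were 1.44, 0.60 and 0.70, and by the probe sets used Stab2 alone remained at least 2-fold higher. All Cd36 values in this comparison depend on the probe set used. The next Cd36 probe set read 6601 on the unsorted array, 1417 and 2459 in Sca1+ cells and 106, 1758 and 1867 in Sca1- cells. By that probe set the unsorted array was more than 2-fold above every sorted array. The unsorted signal was 1.89 times the highest sorted array for Stab2, 1.28 times for Mrc1, 1.19 times for Cd36, 1.42 times for Oit3 and 1.30 times for Dnase1l3, and the unsorted array was the highest of these 6 for each. Of the 7 scavenger genes above 100 on any of the 6 arrays, which leaves out Dnase1l3, 4 were above all sorted arrays, as were 35.4% of the 10510 genes. For Oit3 and Dnase1l3 the unsorted values of 126 and 67.6 lay below that array's highest bacterial control. The differences of Lyve1 (0.61), Oit3 (0.58), Clec4g (0.21) and Dnase1l3 (0.08) rest on signals near or under the floor, and after quantile normalization those of Lyve1, Oit3 and Clec4g were -0.11, -0.30 and -0.37. The median of all tested genes was 0.17 above the sorted mean with this scaling, -0.10 after quantile normalization and -0.54 after median scaling; relative to it Stab2 was 1.22, 0.88 and 1.20 higher, Mrc1 0.88, 1.503 and 0.86 and Cd36 0.97, 1.69 and 0.95.

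The feeder array lies alone in a separately deposited table under another array platform, so that its values stand beside the others without a test. Stab2 was 2-fold or more lower on the feeder array than on the unsorted array (-1.08; -0.83 after quantile normalization and -0.72 after median scaling, both short of 2-fold), as were 15.9% of the 9751 genes above 100 on either; none of the 8 was 2-fold or more higher, where 4.08% were. The feeder minus unsorted difference was 0.56 for Cd36, -0.14 for Stab1, -0.15 for Mrc1, -0.76 for Lyve1, -0.52 for Clec4g, -0.29 for Oit3 and -0.08 for Dnase1l3. With each array scaled to its median, Stab1, Mrc1 and Oit3 turned to 0.22, 0.21 and 0.07, where the median of all genes was 0.30. The Cd36 value depends on the probe set: the next one read 6574 on the feeder and 6601 on the unsorted array, and the dimmest 567 and 334. Against the mean of the sorted fractions Cd36 was 1.69 higher on the feeder array, and 12.1% of 9946 genes were at least 2-fold higher. Without Sca1- replicate 1 it was 1.26 higher. Beside this, tested fibroblast genes had a median of 2.53, hepatoblast genes 0.69 and macrophage genes -0.08, and the feeder array had a cre signal of 14794 and 3' to 5' ratios below every sorted array; their part was not tested. Mrc1 was 0.90 higher (0.44 without that array) and Stab1 had a difference of -0.50. The Stab2 difference of 0.31 was -0.05 after quantile normalization and after median scaling. Relative to the median of all genes the Stab2 difference from the unsorted array was -1.05 here, -0.83 after quantile normalization and -1.02 after median scaling.

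Profiles over the 6 arrays of the larger table were compared by the root mean square difference of log2 signals centred on each gene's mean. Mrc1 and Cd36 were the closest pair among the scavenger genes that passed the filter, at 0.12 (log2), while Stab1 was 0.68 from Mrc1 and 0.70 from Cd36, and Stab2 was 1.03 from Stab1 and 1.20 from each of Mrc1 and Cd36. Among 8590 other tested genes, Mrc1 was most like Vps50 (0.07), Pno1 (0.09) and Cd36 (0.12), against a median of 1.12. Cd36 was most like Pls3 (0.08), Vps50 (0.09) and Pno1 (0.12). Stab1 was most like Ciapin1 (0.09), Hs1bp3 (0.10) and Cdkn1a (0.10), and Stab2 was most like Ror1 (0.14), Hlf (0.14) and Tnfaip3 (0.15), which were each at the floor on at least 1 array. Lyve1, at the floor on 4 of these 6 arrays, was most like Get4 (0.05), Inpp5a (0.09) and Cd300a (0.09). For Mrc1, Cd36 and Stab1 the shared feature of these profiles was the low value on Sca1- replicate 1; Pno1 had 5.40 and Vps50 25.8 there. Likeness over 6 arrays is a description.

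**Figure D4:**
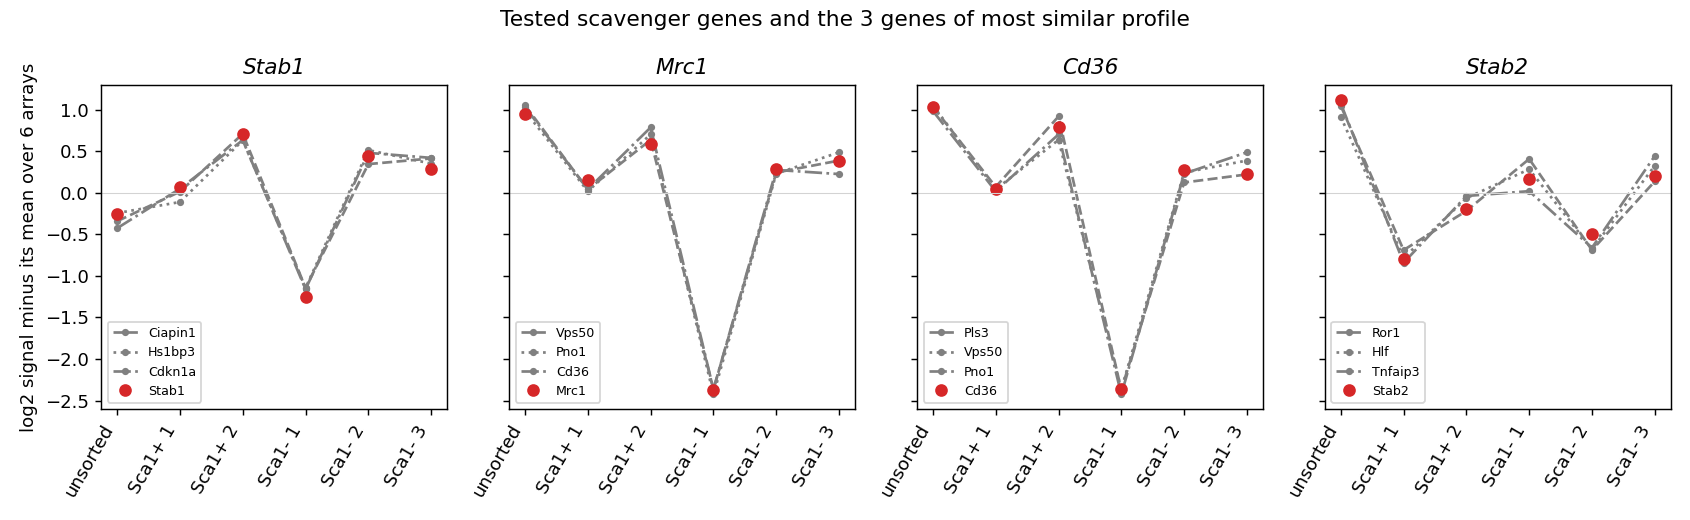
Log2 signal minus its mean over 6 arrays for Stab1, Mrc1, Cd36 and Stab2 (red points) and for the 3 tested genes of smallest root mean square difference to each (grey lines), on the unsorted, Sca1+ and Sca1- arrays. The profiles of Mrc1 and Cd36 differ by 0.12 and both drop on Sca1- replicate 1.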

How the data were processed

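RNA from mouse fetal liver was read on 7 arrays of 1 colour. The authors deposited 1 linear intensity for each probe set, already brought to a trimmed mean of about 250; per the submitters' processing notes the second set of 3 arrays was made with GCOS, with the software of the other 4 not given in the sources used here. Groups came from the titles, unnumbered titles being taken as replicate 1. No 2 arrays were identical.

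Signals were rescaled to a 2% trimmed mean of 500 per array, floored at 64 and converted to log2. Of 22690 probe sets, 64 were controls, 20380 had 1 gene, 691 several and 1555 none in the platform annotation. Where a gene had several probe sets, the one with the highest log2 average across the larger table's 6 arrays stood for it; genes above 100 on at least 2 of 5 sorted arrays were tested, 8591 in all. Sca1+ was compared with Sca1- by limma 3.58.1 in R 4.3.3 (intensity trend, group as the only term, 3 residual degrees of freedom, 2 with the array set as a block) with Benjamini-Hochberg adjustment at 0.05. The number of arrays limits the precision.

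Genes were named by rule: the 8 scavenger genes, up to 3 tested members of each gene list with the smallest p, the 3 tested genes of most similar profile for each scavenger gene above 100 on at least 2 of 6 arrays, and Ptprc, Pecam1 and Ly6a. List genes named for staying under or above 100 on all arrays, and Lyz2 and Clec7a where a value is singled out, were chosen after their values were seen. Members and lists were chosen with earlier results of these data known. Promoters came from RefSeq (GRCm38.p6). Figures were drawn with matplotlib 3.10.9.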

Additional observations from a re-analysis of the deposited data

How the results depend on the processing

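The 4 tested scavenger genes kept their direction and stayed short of the threshold under all 73 recomputed values, which cover other scaling, a lower and a higher floor, a pseudocount, other filters, other probe sets, no intensity trend, blocks, only the 5 sorted arrays and leaving out each sorted array. The difference ranged from 0.02 to 0.88 for Stab1, 0.04 to 1.42 for Mrc1, 0.16 to 1.48 for Cd36 and -0.75 to -0.15 for Stab2, and the low ends for the first 3 came without Sca1- replicate 1. The smallest adjusted p was 0.236, for Cd36 with the replicate number as a block. The count of genes past the threshold was 0, but 85 with the array set as a block, 80 with the replicate block and 1 without a filter; without each sorted array in turn it ranged from 0 to 0. The 85 and 80 genes were all lower in Sca1+, and the 1 without a filter was higher. With limma and group as the only term 292 genes had an unadjusted p under 0.05. The replicate numbers pair Sca1+ replicates 1 and 2 with Sca1- replicates 1 and 2, but the labels do not say that a number marks a shared culture. Over genes, deviations from the group mean correlated at 0.57 and 0.48 for the same-numbered arrays, and at 0.52 for Sca1+ replicate 2 with Sca1- replicate 3. With 2 Sca1+ arrays these deviations are mirror images, correlating at 0.566 and -0.566 with Sca1- replicate 1. Replicate 1 of each fraction is also in the first array set and the other replicates in the second. These correlations therefore cannot tell pairing from array set. The fit with the replicate block leaves 1 residual degree of freedom. For the 8 genes the differences of the unsorted and feeder arrays moved by more than the spread of the sorted arrays under 18 recomputed values for unsorted minus sorted (38 did not), 16 for feeder minus unsorted (32 did not) and 7 for feeder minus sorted (49 did not), and no difference of 2-fold or more changed sign. That spread, the SD over the sorted arrays, was 0 for Dnase1l3, 1.23 for Mrc1 and 1.24 for Cd36. Cd36 going from 1.14 to 0.41 for unsorted minus sorted with median scaling thus counted as not moved. These counts depend on each gene's spread and do not measure stability. Leaving out Sca1- replicate 1 from these differences was chosen after seeing the data. Signals near background limit Lyve1, Clec4g, Oit3 and Dnase1l3, which were not tested.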
